A study of Mus musculus with 8 samples.

Results

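Otx2 and 7 other transcription factor genes of the early anterior neural plate, Six3, Hesx1, Rax, Lhx2, Sox1, Sox3 and Pax6, were followed in single cells of day 5 embryoid bodies. The 8 genes were chosen by name, with earlier results of these counts known, and make up 8 of the 27998 gene rows of each count table. All 8 rows were found in both tables. Since they were chosen with the difference between the libraries in view, the levels below are given as a description.

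Otx2 encodes a homeodomain protein of the epiblast, the anterior visceral endoderm and anterior mesendoderm, and later of the forebrain and midbrain. It is also a factor of formative pluripotency, the state that follows the naive one. Six3, Hesx1, Rax and Lhx2 encode homeodomain factors of the anterior neural plate and of the eye field, where several of them are transcribed in the same cells. Sox1 and Sox3 belong with Sox2 to the SoxB1 group, of which Sox1 is the usual marker of committed neural plate, and Pax6 is a later factor of forebrain and eye. Several of these genes are also transcribed in epiblast or in anterior endoderm, so the other genes of the positive cells were examined as well.

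The cells came from an E14 mouse embryonic stem cell line with a green fluorescent reporter for the cardiac gene Nkx2-5. They had been grown on mitomycin C treated embryonic fibroblast feeders with leukemia inhibitory factor, and then differentiated without it as embryoid bodies, which form in hanging drops and were expanded in suspension. The study compared 1 single-cell RNA library labelled wild type (WT) with 1 labelled Tet triple knockout (TKO), both at day 5 and untreated, to ask what TET proteins, the enzymes that oxidise 5-methylcytosine, do on the way to cardiac cells. The other 6 of the 8 samples, pull-downs of the oxidised base from wild-type cells, were not analysed here. The labels do not say whether the knockout cells are 1 clone or how the alleles were made.

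After filters 4392 WT-labelled cells with 37529180 unique molecular identifiers (UMIs, each marking 1 captured RNA) and 3197 TKO-labelled cells with 33503021 UMIs remained. Median depth per cell was 7849.5 UMIs for WT-labelled and 9679 for TKO-labelled cells. The barcode lists of the libraries shared 21 barcodes. With 1 library in each group no spread between replicates exists, no test across libraries was possible, and every interval below covers counting error only. The Tet rows did not check the knockout label, since neither the deleted exons nor the counted transcript ends are described by the labels. Levels are in CPM, a gene's UMIs divided by the UMIs of its library or cell group and put on a fixed scale. Tet1 was at 12.3 CPM in WT-labelled cells and 22.8 CPM in TKO-labelled cells. Tet2 stood at 6.82 and 4.60 CPM, and Tet3 at 29.2 and 20.3 CPM. The cell types differed widely as well. All 8 genes of the fibroblast and mesenchyme list and all 8 of the blood list were at least 2-fold lower in the TKO-labelled library, and 12 of the 15 pluripotent genes were at least 2-fold higher.

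TET enzymes act mostly on methylated cytosine in CG, so the sequence before the starts of 3 members is shown with each CG in capitals, as context for how differently these genes are built. No methylation value was analysed here. The sequences are RefSeq's for GRCm38.p6, run from 250 to 11 bases before the start on the gene's own strand, and lie outside the annotated gene. Otx2 is the member with the most TKO-labelled UMIs, Sox1 the one with the fewest, and Lhx2 the one that differed least between the libraries.
Otx2: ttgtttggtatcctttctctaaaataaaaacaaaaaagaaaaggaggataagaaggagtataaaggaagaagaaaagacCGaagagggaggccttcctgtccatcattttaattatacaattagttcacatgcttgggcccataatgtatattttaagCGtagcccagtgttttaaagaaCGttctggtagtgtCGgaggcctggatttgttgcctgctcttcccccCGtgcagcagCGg
Lhx2: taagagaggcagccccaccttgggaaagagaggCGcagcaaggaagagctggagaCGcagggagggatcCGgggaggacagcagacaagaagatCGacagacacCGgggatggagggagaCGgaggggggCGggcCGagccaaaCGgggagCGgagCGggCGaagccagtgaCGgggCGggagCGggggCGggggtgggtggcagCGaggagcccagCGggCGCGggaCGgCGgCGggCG
Sox1: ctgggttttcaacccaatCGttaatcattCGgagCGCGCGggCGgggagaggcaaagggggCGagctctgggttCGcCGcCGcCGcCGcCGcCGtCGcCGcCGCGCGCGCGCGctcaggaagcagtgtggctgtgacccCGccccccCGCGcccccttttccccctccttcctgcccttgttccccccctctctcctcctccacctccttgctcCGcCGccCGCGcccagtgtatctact
The Otx2 window (chr14:48667655-48667894, minus strand) held 6 CG, close to the median of 5 over all 32851 windows of 240 bases. The Lhx2 window (chr2:38339031-38339270, plus strand) held 24 and the Sox1 window (chr8:12395269-12395508, plus strand) 29, and 89.5% and 94.2% of all windows held fewer. Pax6 had 14 before its upstream start, Six3 had 9 and Hesx1 had 2, the last pair counted at starts inside the annotated gene. Otx2 windows at starts inside the gene held 7, 12 and 9 CG, and 68.0% of all windows held fewer than 12. The Lhx2 and Sox1 windows shown were thus CG-rich. The Otx2 window shown and the Hesx1 window inside the gene were not CG-rich. Whether CG content goes with the difference between the libraries was not tested. TAATCC, the core that Otx2 is known to bind, was searched on both strands of the 11 windows that 6 members had, and was in 1 of them, at an Otx2 start inside the gene. It was in 6.04% of all windows. Only 1 pair of the 11, both of Otx2, overlapped. TAATTA, a core bound by many homeodomain proteins, was in 2 of the 11, both of them Otx2 windows and 1 of them the window shown, and in 4.77% of all windows. In no member window did the 2 motifs share a base. A match is a description of letters only.

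Otx2 (chr14:48656781-48667644) was counted 33 times in the WT-labelled library and 3327 times in the TKO-labelled library. Its level was 0.879 CPM (0.605 to 1.23, exact Poisson 95% interval) in the former and 99.3 CPM (96.0 to 103) in the latter, a ratio of 113 (80.3 to 164). In library sums, more cells of a type and more RNA per cell cannot be told apart, and the counts per cell bear on this. Otx2 had a UMI in 21 WT-labelled cells, at most 4 in a cell, and in 1124 TKO-labelled cells, of which 479 had 3 or more and the highest had 18. After thinning each cell to 4000 UMIs, which puts cells on 1 depth, 8 of 4019 WT-labelled cells (0.199%) and 662 of 3007 TKO-labelled cells (22.0%) kept an Otx2 UMI.

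Of the factors of the anterior plate and eye field, Six3 (chr17:85613608-85626191) rested on 2 WT-labelled and 291 TKO-labelled UMIs, or 0.0533 and 8.69 CPM. The ratio was 163, with an interval from 44.7 to 1352 that is wide because of the 2 UMIs. Hesx1 (chr14:26994419-27002329), a homeodomain repressor of forebrain and pituitary development, had 3 UMIs, all in 1 cell, and 276, a ratio of 103 (34.9 to 503). Rax, the retina and anterior neural fold homeobox gene, had 2 and 46 UMIs, a ratio of 25.8 (6.74 to 219). Lhx2 (chr2:38339271-38369737), a LIM homeodomain factor, went another way. It had 138 WT-labelled and 169 TKO-labelled UMIs, 3.68 and 5.04 CPM, a ratio of 1.37 (1.09 to 1.73), and was the only member with over 100 WT-labelled positive cells (122, against 137 TKO-labelled ones).

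Sox1 (chr8:12395519-12399555) had 1 and 30 UMIs and a ratio of 33.6 (5.59 to 1371). Sox3 (chrX:60891366-60893430) had 2 and 84 UMIs and a ratio of 47.1 (12.6 to 395). Pax6 (chr2:105668896-105698410) had 6 and 102 UMIs and a ratio of 19.0 (8.45 to 53.1), and none of its 95 positive TKO-labelled cells held more than 2 UMIs. Pax6os1, a gene that overlaps Pax6 and whose reads could be shared with it where strand was not used, had 0 and 3 UMIs. In all, 7 of the 8 members were at least 2-fold higher in the TKO-labelled library. Over the 15344 genes with at least 10 UMIs, 13.7% were. The count was also 7 at 4-fold and at 10-fold, which 6.02% and 2.24% of genes passed. The members were picked from this contrast, so nothing is read from the gap. By TKO-labelled UMIs the order was Otx2, Six3 and Hesx1, Lhx2, Pax6 and Sox3, Rax and Sox1, where the intervals overlapped only between the genes joined by "and". These counts are not scaled by transcript length, so the order is one of captured molecules.

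**Figure D1:**
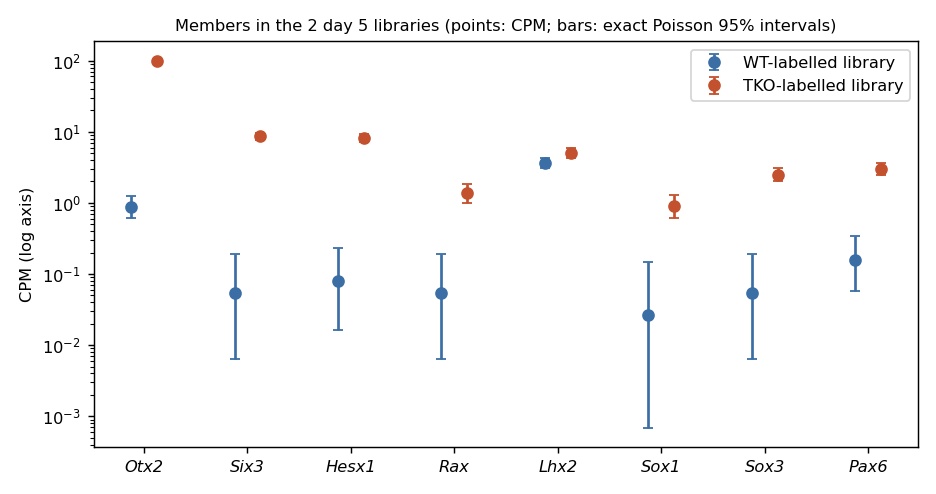
CPM of the 8 members (log axis) in the WT-labelled and TKO-labelled library, with points for the level and bars for exact Poisson 95% intervals of 1 library each. Lhx2 differs least, at 3.68 and 5.04 CPM, and Otx2 is the furthest apart in absolute level, at 0.879 and 99.3 CPM.

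The cells of both libraries were then clustered together without the 8 members, so that no member helped to place a cell. TKO-labelled levels are ranked below only among the clusters with at least 30 TKO-labelled cells. Of the TKO-labelled cells, 1029 fell in a cardiac-like cluster, 574 in a cluster like head and paraxial mesenchyme, 325 in a pluripotent-like cluster and 69 in an endothelial-like one. The largest, of 1072 cells, was led by Trh, Pax9 and Cldn6. It had only 2 definitive endoderm markers, Trh and Cpm, among its 10 leading genes, too few for a name, and is called the Trh-led cluster. A cluster of 38 cells was led by T and Noto, genes of the node and notochord, and by genes of motile cilia such as Dnajb13, and also stays unnamed. WT-labelled cells were few in most of these clusters, with 34 in the Trh-led, 40 in the pluripotent-like, 35 in the cardiac-like, 10 in the mesenchyme-like and 0 in the T- and Noto-led cluster, but the endothelial-like cluster held 187.

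Otx2 was highest in the Trh-led cluster, at 188.6 CPM (181 to 197), which held 67.5% of all its TKO-labelled UMIs in 33.5% of the cells. The pluripotent-like cluster followed at 144.9 CPM (134 to 156), the T- and Noto-led cluster at 106 (73.4 to 148) and the mesenchyme-like cluster at 49.9 (44.0 to 56.4). The endothelial-like and cardiac-like clusters stood at 16.2 and 9.52 CPM. Otx2 UMIs were thus found in each of these 6 clusters. Intervals overlapped between the T- and Noto-led and the pluripotent-like cluster and between the endothelial-like and the cardiac-like cluster, and not between the other neighbours in this order. In thinned cells 40.6% of the Trh-led, 39.8% of the pluripotent-like and 15.7% of the mesenchyme-like cells had an Otx2 UMI, against 2.57% of the cardiac-like and 0 of 19 blood-like cells, few enough that their Clopper-Pearson upper bound is 17.65%. The median cells of the Trh-led, pluripotent-like, mesenchyme-like and cardiac-like clusters held 10540.5, 14159, 8559.5 and 8985 UMIs before thinning. An unnamed cluster of 20 TKO-labelled cells, too small to be ranked, had Otx2 at 138.9 CPM (71.8 to 243) on 12 UMIs. Of its 9 thinned cells, 5 had an Otx2 UMI.

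Six3 was placed otherwise among the ranked clusters. It was highest in the T- and Noto-led cluster at 65.5 CPM (40.5 to 100), on 21 UMIs in 14 of 38 cells, then in the pluripotent-like cluster at 24.7 (20.4 to 29.7) and in the Trh-led cluster at 9.66 (7.97 to 11.6). The pluripotent-like and the Trh-led cluster each held close to 39% of its UMIs (114 and 115). For each 100 Otx2 UMIs there were 61.8 of Six3 in the T- and Noto-led cluster, 17.1 in the pluripotent-like and 5.12 in the Trh-led cluster. Among the same clusters Hesx1 was highest in the pluripotent-like cluster, at 37.1 CPM (31.7 to 43.1) with 62.0% of its UMIs. The endothelial-like cluster followed at 8.08 CPM, on 7 UMIs in 2 cells, and the Trh-led cluster at 6.80 CPM. In the 1029 cardiac-like cells 1 Hesx1 UMI was counted. The unranked cluster of 20 cells had Six3 and Hesx1 at 46.3 CPM each, on 4 UMIs each. Their intervals there, from 12.6 to 119, spanned the pluripotent-like values of both genes.

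Rax, Sox1 and Sox3 were also concentrated in the pluripotent-like cluster, which held 10.2% of the cells. It had 69.6% of the Rax UMIs, 76.7% of those of Sox1 and 48.8% of those of Sox3, at 6.94, 4.99 and 8.89 CPM. Without 2 cells that are described further on, Rax stood at 3.06 CPM there, with 14 of the remaining 28 UMIs, beside 3.12 CPM on 1 UMI in the T- and Noto-led cluster. Sox3 had 44.1% of its UMIs in the Trh-led cluster as well, at 3.11 CPM, while its level in the cardiac-like and mesenchyme-like clusters was 0.203 and 0.194 CPM. Pax6 had no such peak. It stood at 3.75 CPM in the cardiac-like, 3.36 in the Trh-led, 2.82 in the pluripotent-like and 2.32 in the mesenchyme-like cluster, with overlapping intervals, so its positive cells are not read as a cell type. Lhx2 stood at 7.94 CPM in the mesenchyme-like, 7.39 in the cardiac-like and 6.72 in the pluripotent-like cluster, and was lowest in the Trh-led cluster at 1.34 (0.768 to 2.18). Its pluripotent-like value was 3.28 CPM without the same 2 cells. In the unranked cluster of 20 cells Rax stood at 11.6 CPM on 1 UMI, and Lhx2 had no UMI.

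**Figure D2:**
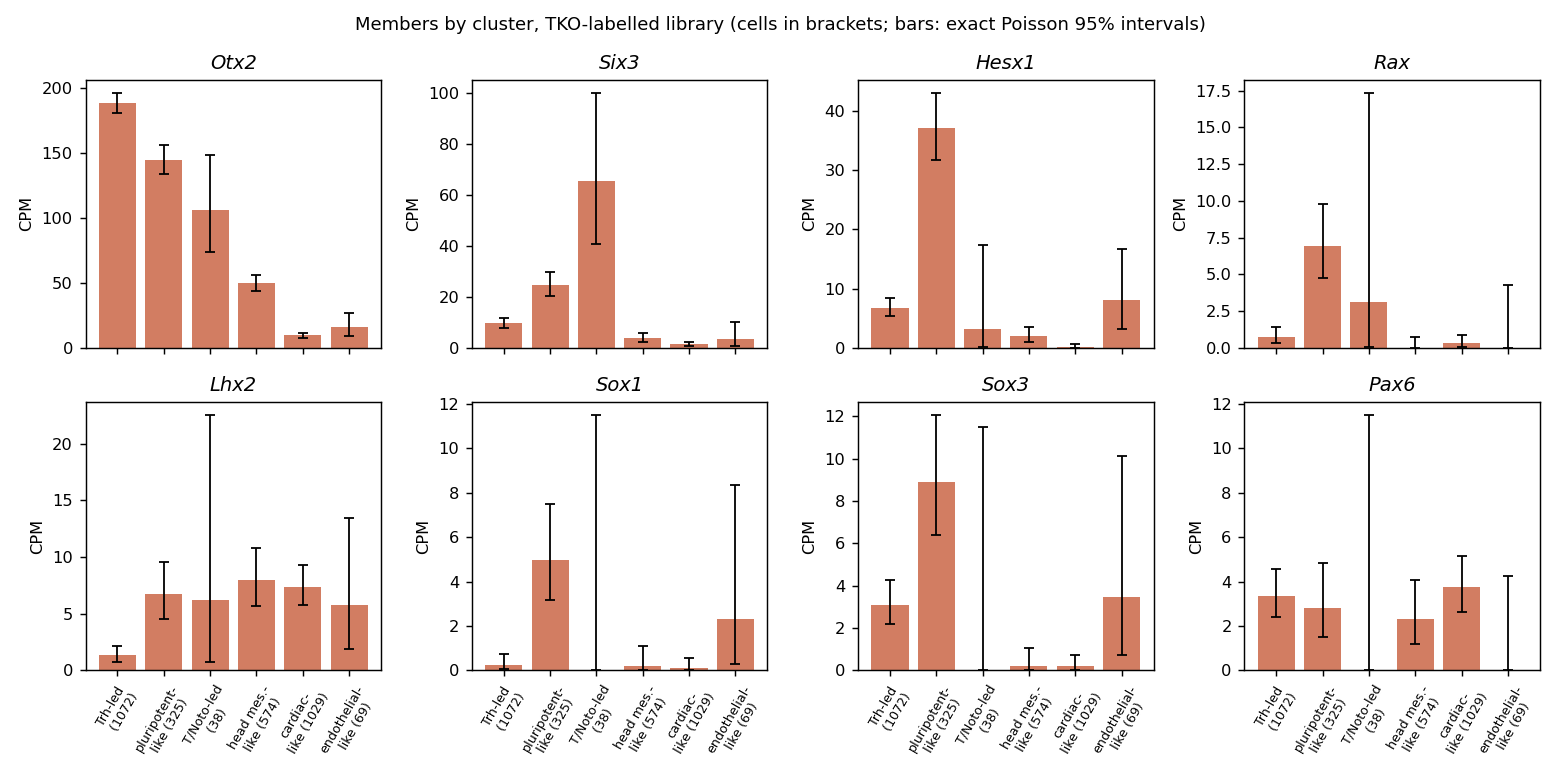
CPM of each member in the 6 clusters with at least 30 TKO-labelled cells, with exact Poisson 95% intervals and its own axis for each gene. Otx2 peaks in the Trh-led cluster (188.6 CPM), Six3 in the T- and Noto-led cluster (65.5 CPM), Hesx1, Sox1 and Sox3 in the pluripotent-like cluster, and Pax6 has no peak. The Rax point of that cluster rests largely on 2 cells.

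Of the 33 WT-labelled Otx2 UMIs, 15 were in the 34 WT-labelled cells of the Trh-led cluster and 6 in the 40 of the pluripotent-like cluster, which together made up under 2% of the library. The other 12 lay elsewhere, 5 of them in a single unnamed cluster of 609 WT-labelled cells and 3 in the extraembryonic endoderm-like cluster. Within the Trh-led cluster Otx2 stood at 50.7 CPM in WT-labelled and 188.6 in TKO-labelled cells, a ratio of 3.72 (2.25 to 6.66). Within the pluripotent-like cluster it stood at 15.5 and 144.9 CPM, a ratio of 9.38 (4.29 to 25.6). Both are well under the 113 of the whole libraries, but the WT-labelled UMIs behind them lay in only 6 and 3 cells. In the endothelial-like cluster Otx2 had 0 UMIs in 187 WT-labelled and 14 in 69 TKO-labelled cells. The counting interval of that ratio starts at 6.025 and has no upper end. All 3 WT-labelled Hesx1 UMIs were in 1 cell of the Trh-led cluster, at 10.1 CPM against 6.80 CPM in its TKO-labelled cells, a ratio of 0.671 (0.222 to 3.32). Hesx1 had no UMI in the 40 WT-labelled pluripotent-like cells and 171 in the 325 TKO-labelled ones. With 3 counts as the floor of the 40 cells this gives a ratio of 4.80, while the counting interval of the ratio starts at 3.86. Six3 had 1 UMI in those 40 cells and 114 in the TKO-labelled ones, a ratio of 9.60 (1.69 to 382). Rax, Sox1, Sox3 and Pax6 had no UMI in the WT-labelled cells of the Trh-led or the pluripotent-like cluster. For Sox3 in the pluripotent-like cluster, with 41 TKO-labelled UMIs, the same floor gives at least 1.15-fold higher, while the counting interval of the ratio starts at 0.894, and for the rest a difference was not detectable at this depth. WT-labelled Lhx2 was spread over that library's 5 largest clusters, all unnamed, at 3.20 to 8.64 CPM.

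Which markers the positive cells carried was read in thinned TKO-labelled cells, where a cell carries a list if at least 3 of its genes have a UMI. No list holds a member. Of the 662 Otx2-positive cells, 246 (37.2%, 33.5 to 41.0, Clopper-Pearson 95%) carried the definitive endoderm list, against 12.9% (11.5 to 14.3) of the 2345 negative cells. The pluripotent list was carried by 144 (21.8%, 18.7 to 25.1), against 8.15% (7.07 to 9.33). The neural progenitor list was carried by none of the 662 and by 1 negative cell. Fewer genes of that list were well counted at this depth, as given below. For the 662 the Clopper-Pearson upper bound is 0.556% at this depth, and 3 cells of the total are 0.453%. Another thinning draw gave 0.299% of 668 positive and 0.04275% of negative cells. Without thinning 3.11% of the 1124 positive cells carried the neural progenitor list, against 0.579% of negative cells, which were less deep. Counting each Otx2-positive cell once, 230 carried endoderm genes without the pluripotent list, 128 pluripotent genes without the endoderm list, 16 both and 288 neither. Before thinning, the 1124 cells with an Otx2 UMI had a median depth of 11548.5 UMIs, against 8892 in the cells without.

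By gene, the endoderm side of the Otx2-positive cells was led by Trh, the gene of thyrotropin-releasing hormone, at 1369 CPM against 282 in negative cells. Of the 10 genes of the endoderm list, 5 were at least 2-fold higher and 1 at least 2-fold lower in the positive cells. The share of all genes past these limits was not computed for this split, so nothing is read from the count. Sox17, an endoderm factor, stood at 75.1 against 21.2 CPM. Hhex, a homeobox gene of anterior endoderm, stood at 66.5 against 26.6, and Foxa2 at 44.2 against 22.4. Cer1, a secreted Nodal and Wnt antagonist of anterior endoderm, stood at 16.2 against 2.56 CPM, but 1 cell held 25 of its 43 UMIs, and without it the level was 6.81 CPM. Of the pluripotent list, the epiblast growth factor gene Fgf5 stood at 50.2 against 10.7 CPM, Pou3f1 at 25.3 against 7.57, and Pou5f1, which encodes Oct4, at 143 against 58.3. The naive pluripotent list was carried by 0.604% of positive and 0.640% of negative cells. Among genes with at least 50 UMIs in the 1124 positive cells before thinning, the highest ratios over negative cells were those of Ptgdr, Hesx1, Tal2, Platr10, Gip and Ermn. Hesx1 there stood at 18.6 against 1.01 CPM and was found in 120 positive and 16 negative cells.

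The other members divided by what their cells carried. Six3-positive cells carried the pluripotent list in 27 of 77 cells (35.1%, 24.5 to 46.8) against 10.5% of negative cells, and the endoderm list in 17 (22.1%, 13.4 to 33.0) against 18.1%. Hesx1-positive cells carried the pluripotent list in 34 of 63 (54.0%, 40.9 to 66.6) against 10.2%, and the endoderm list in 12 (19.0%, 10.2 to 30.9) against 18.2%. For both genes the endoderm interval thus spanned the share of negative cells. Sox3-positive cells carried the pluripotent list in 9 of 25 (36.0%, 18.0 to 57.5) and the endoderm list in 2. The pluripotent list was carried by 6 of 11 Rax-positive and 5 of 7 Sox1-positive cells, and the endoderm list by none of either. Lhx2-positive cells carried the pluripotent list in 11.7% of 60 (4.82 to 22.6) and Pax6-positive cells in 10.5% of 38 (2.94 to 24.8), wide intervals that span the 11.1% of negative cells beside each. Lhx2-positive cells carried the endoderm list in 5.00% against 18.5% of negative cells, with an upper bound of 13.9%.

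**Figure D3:**
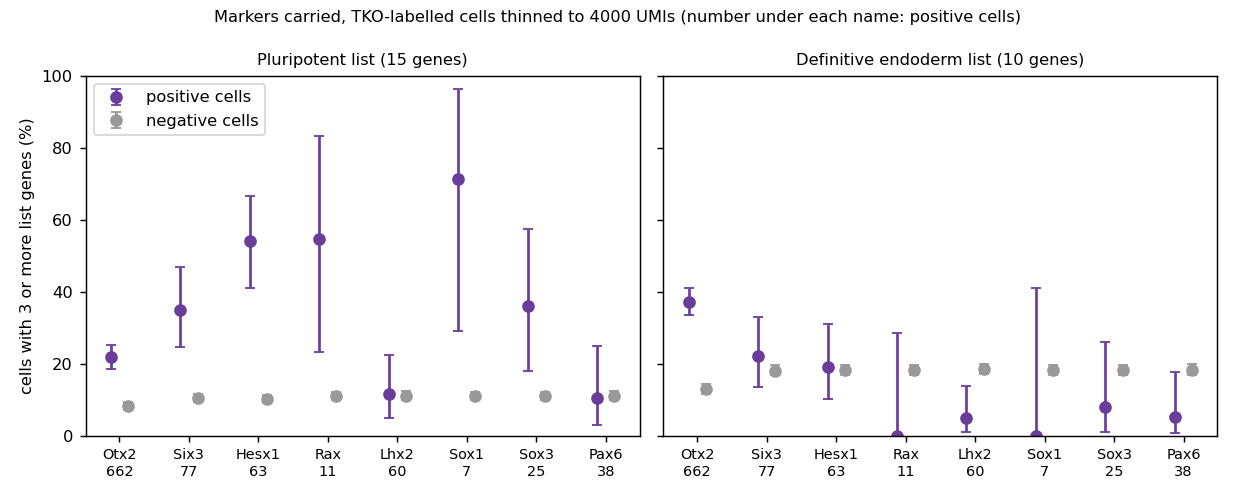
Share of TKO-labelled cells, thinned to 4000 UMIs, in which at least 3 genes of the pluripotent or definitive endoderm list have a UMI, for cells with and without a UMI of each member, with Clopper-Pearson 95% intervals. Hesx1-positive cells reach 54.0% on the pluripotent list and Otx2-positive cells 37.2% on the endoderm list, and for Lhx2 and Pax6 the interval on the former spans the share of negative cells.

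Neural markers were few in every class. In the TKO-labelled library 1 of 3007 thinned cells carried 3 or more of the 15 neural progenitor genes, and none of the 4019 WT-labelled cells did. At least 2 such genes were found in 20 of 662 Otx2-positive cells (3.02%), 5 of 77 Six3-positive cells (6.49%) and 5 of 63 Hesx1-positive cells (7.94%), against 2.03% of all 3007. The list's genes did not lie together. Sox21, a SoxB2 gene of neural progenitors, had 266 of its 307 TKO-labelled UMIs in the Trh-led cluster. Lhx5 had 37 of 41 in the pluripotent-like cluster, as did Fezf2 with 10 of 11, and Emx2 was highest in the mesenchyme-like cluster at 13.4 CPM. Over the whole library Hes5, a Notch target of neural progenitors, stood at 0.0266 CPM in WT-labelled and 2.24 in TKO-labelled cells. Nes and Ncam1, which many other cells transcribe, differed least, at 4.13 and 9.28 CPM for Nes and 66.5 and 43.6 CPM for Ncam1. Of the neuron list, at least 3 genes were found in 1 of the 662 Otx2-positive and none of the 2345 negative cells. Its summed level was nevertheless higher in the positive cells, at 144 against 70.4 CPM, a ratio of 2.05 (1.80 to 2.33), of which Stmn2, a gene of neurite growth, made up 133 and 64.6 CPM. The sum was 237 against 82.7 CPM by Six3, a ratio of 2.87 (2.23 to 3.64), and 238 against 83.4 CPM by Hesx1, a ratio of 2.86 (2.16 to 3.71). By Sox1 it stood at 1036 against 84.4 CPM, but on 29 UMIs in 7 positive cells, 28 of them Stmn2. Tubb3 stood at 14.5 CPM in the pluripotent-like cluster and at most 9.35 in the other clusters, while Stmn2 stood at 285 CPM there, 159 in the T- and Noto-led and 102 in the Trh-led cluster.

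Within clusters, cells with and without a member were set side by side. This split was added after the cluster values had been seen, as was a repeat that left out, for each gene, the positive cell with most of its UMIs. In the Trh-led cluster 633 of the 1072 TKO-labelled cells had an Otx2 UMI. Gsc, a homeobox gene of anterior mesendoderm, stood at 40.3 CPM in them against 6.80 in the 439 cells without, and was found in 141 and 21 cells. Six3 stood at 14.1 against 2.04 CPM, Foxd4 at 6.40 against 0.454, and Hesx1 had 80 of its 81 UMIs in Otx2-positive cells. Trh itself was 2.19-fold higher (2.11 to 2.27), while Foxa2 was level at 63.2 against 62.6 CPM. Cer1 was found in 34 Otx2-positive cells and 1 Otx2-negative cell, on 166 UMIs and 1. Fgf5 had 301 UMIs in 132 Otx2-positive cells and 18 in 14 Otx2-negative ones, a ratio of 9.52 (5.92 to 16.3) without the cell with most. In the pluripotent-like cluster the same ratio was 1.12 (0.866 to 1.47), on 276 and 76 UMIs. The Otx2-positive cells of the Trh-led cluster were deeper, with a median of 11155 UMIs against 9475.

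The TKO-labelled cell with the most Otx2, 18 UMIs among 17353, lay in this cluster and was also the cell with the most Cer1 and the most Dkk1, another secreted antagonist. It held 96 Cer1, 22 Dkk1, 175 Trh, 8 Gsc, 4 Foxa2 and 2 Six3 UMIs, and no Hesx1 or T. Those 96 are a large part of the 234 Cer1 UMIs of the library, which lay in 73 cells. It was picked out after its values were seen, and it sets the Cer1 values of Six3-positive and of Hesx1-negative cells too.

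The 58 Six3-positive cells of the Trh-led cluster had Gsc at 107.8 CPM against 22.2 in the 1014 others, a ratio of 4.85 (3.75 to 6.24), with Gsc found in 32 of the 58 and 130 of the 1014. Fzd5, a Wnt receptor gene of the eye field, stood at 59.6 against 9.80 CPM and was found in 24 and 88 cells. Ermn stood at 38.0 against 3.69 CPM. Without the positive cell with most UMIs the ratios of Gsc, Fzd5 and Ermn were 4.59, 5.08 and 8.02. Cer1 had the highest ratio, 31.2, on 115 UMIs in 6 positive cells, and its ratio was 5.27 (2.94 to 9.06) without the cell of 96. T went from 19.7 to 5.89 (1.35 to 20.4), and Nnat, with 101 of 112 UMIs in another single cell, from 9.87 to 0.983 (0.481 to 1.81), an interval that spans 1. Positive cells held a median of 13045 UMIs against 10444.

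The 46 Hesx1-positive cells of that cluster overlapped the Six3-positive ones in 10 cells, where the product of the shares gives 2.49. They had the Wnt antagonist gene Sfrp1 at 222 CPM against 42.5 in the others, a ratio of 5.23 (4.15 without the cell with most), found in 26 of 46 and 253 of 1026. Cyp26a1, the retinoic acid degrading enzyme, stood at 376 against 89.7 CPM and was found in 35 and 322 cells. Cer1 stood at 15.1 against 13.97 CPM, but 96 of the 158 Cer1 UMIs of the Hesx1-negative cells lay in the 1 cell described above. It was found in 8 of the 46 Hesx1-positive and 27 of the 1026 other cells. T had no UMI in the Hesx1-positive cells. Gip led by ratio at 7.89, which was 2.29 without 1 cell that held 38 of its 53 UMIs. Otx2 was at 451.5 against 175 CPM by Hesx1 and at 289 against 182 CPM by Six3. Sox2 was at 13.4 against 28.2 CPM by Hesx1 and at 60.9 against 25.1 CPM by Six3, the other way round.

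In the pluripotent-like cluster the 64 Six3-positive and the 76 Hesx1-positive cells shared 32, against a product of 15.0. Six3-positive cells had Hesx1 at 97.6 CPM against 20.4 in the 261 others, a ratio of 4.77 (3.49 to 6.55). Lhx5, a LIM homeodomain gene of the anterior forebrain, stood at 27.2 against 2.76 CPM and was found in 14 of 64 and 10 of 261 cells. Foxd4, a forkhead gene of early neural ectoderm, stood at 27.2 against 8.84. Pou5f1 was lower in them, at 557 against 718 CPM, and Trh at 39.2 against 104.8 CPM. Dkk1 had a ratio of 4.93, but 1 cell held 17 of the 23 UMIs, and without it the ratio was 1.31 (0.424 to 3.49).

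Hesx1-positive cells of that cluster had Six3 at 58.3 against 13.3 CPM and Foxd4 at 30.9 against 6.68, and their Pou5f1 was 424 against 771 CPM, a ratio of 0.549 (0.498 to 0.605). Sox2 was level, at 161 against 167 CPM. Sox1 went the other way with Otx2. It stood at 3.14 CPM in the 235 Otx2-positive and 10.8 CPM in the 90 Otx2-negative cells of the cluster, on 11 and 12 UMIs, and 7 of those 12 lay in 1 of the 4 Otx2-negative cells that had any.

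A pair of cells in the pluripotent-like cluster held 5 of the members together at 5 UMIs or more each. They were picked out after their values were seen, as the cells with at least 5 Rax UMIs. The former held 13 Rax, 13 Hesx1, 7 Lhx2, 6 Six3, 6 Otx2 and 5 Lhx5 UMIs among 17796. The latter held 5 Rax, 9 Hesx1, 9 Lhx2, 11 Six3, 11 Otx2, 4 Lhx5 and 2 Pax6 UMIs among 18331. Neither had Sox1 or Sox3, and their Sox2 counts were 11 and 7. Pou5f1 was at 2 UMIs in the former and 0 in the latter, against a median of 8 in the other 323 cells of the cluster. Dnmt3b had 6 UMIs in both together, against a median of 8 per cell, and Utf1 had none. The pair carried 18 of the library's 46 Rax UMIs (39.1%) and 16 of its 169 Lhx2 UMIs, and no other cell of the cluster had more than 2 Rax or 1 Lhx2 UMIs.

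Several values rested on those cells. Without them the log2 ratio of Rax between the libraries was 3.97 instead of 4.69. In Six3-positive cells of the cluster Rax then stood at 2.09 against 3.32 CPM, a ratio of 0.630 (0.0685 to 2.83) where it had been 6.07 (2.83 to 13.6), so that its interval came to span 1. Lhx2 went from 7.65 to 1.89 (0.507 to 6.07). Hesx1, at 3.83 (2.74 to 5.35), Lhx5, at 6.80 (2.98 to 16.5), and Foxd4, at 2.83 (1.60 to 4.96), stayed higher in Six3-positive cells. Pou5f1 in Hesx1-positive cells was then 435 against 771 CPM. The highest Sox1 cell, with 7 of the 30 UMIs, was another cell of this cluster. It held 35302 UMIs, with 3 of Six3, 1 of Sox3, 7 of Pou5f1 and no Otx2, and whether it was a doublet was not tested.

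**Figure D4:**
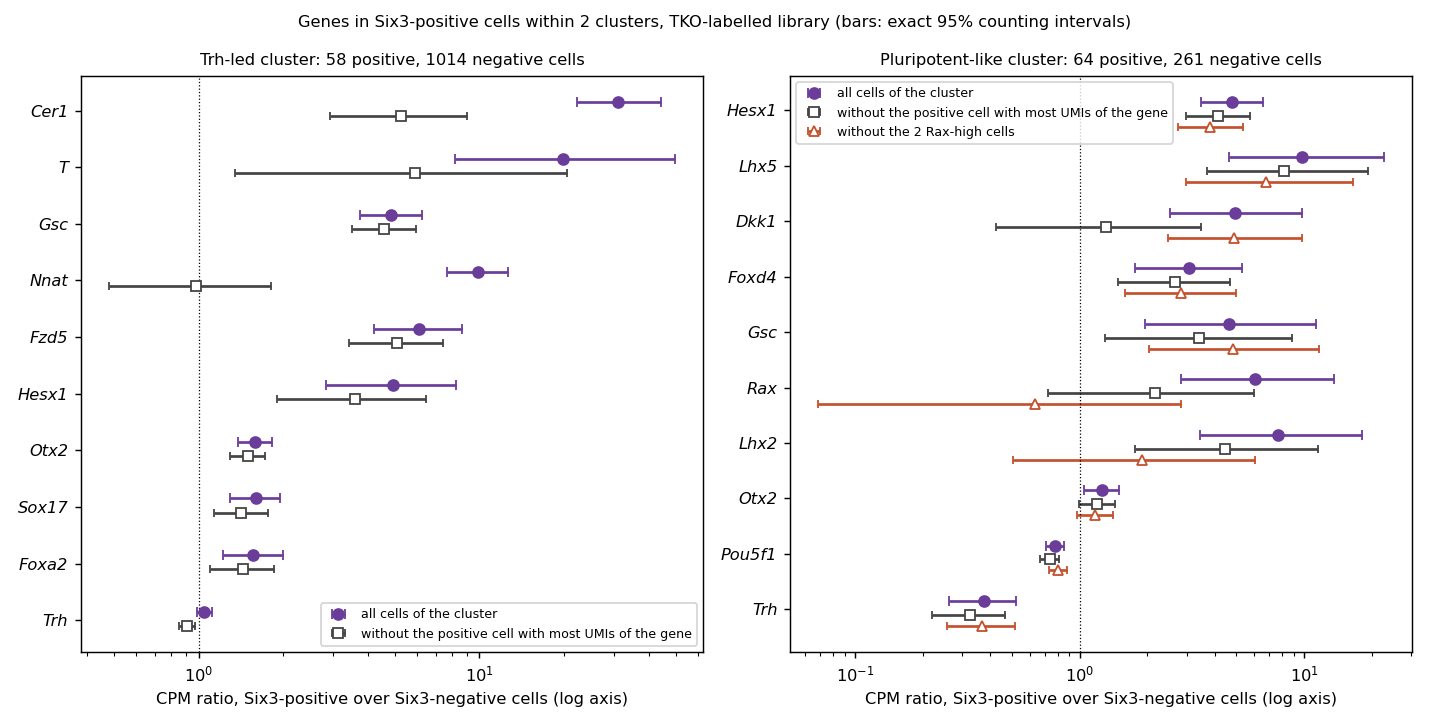
Ratio of CPM (log axis) between Six3-positive and Six3-negative TKO-labelled cells within the Trh-led and the pluripotent-like cluster, with exact 95% counting intervals. Filled circles use all cells, open squares leave out the positive cell with most UMIs of the gene, and open triangles leave out the 2 cells of 5 or more Rax UMIs. Gsc and Fzd5 on the left and Hesx1, Lhx5 and Foxd4 on the right keep ratios above 2 throughout, and Nnat, Dkk1 and Rax do not.

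Co-detection was counted in thinned TKO-labelled cells. Otx2 was found in 43 of the 77 Six3-positive cells (55.8%) and 37 of the 63 Hesx1-positive cells (58.7%), where the product of the shares gives 16.9 and 13.9 cells. Seen from the 662 Otx2-positive cells these were 6.49% and 5.59%. Six3 and Hesx1 shared 11 cells against a product of 1.61. Otx2 and Lhx2 shared 10 cells against 13.2, Otx2 and Sox3 6 against 5.50, and Otx2 and Pax6 11 against 8.37. Sox1 shared no thinned cell with Six3, Lhx2, Hesx1, Rax, Sox3 or Pax6, but it had only 7 positive cells. Most cells had none or 1 of the 8 genes (2185 and 722 of 3007), 84 had 2, and 16 had 3 to 5. Before thinning, 15 of the 325 pluripotent-like cells had 4 or more members, with a highest of 6, against 3 of 1072 in the Trh-led and none of 1029 in the cardiac-like cluster. The median depth differed between these clusters, as given above, and its part in the unthinned counts was not tested.

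The leading genes by ratio set the members apart further. Sox3-positive cells were led by Pou3f1, Utf1, Pou5f1, Pim2, Dnmt3b and Sox2, all pluripotent or early neural genes, with Pou5f1 at 323 against 93.4 CPM and Sox2 at 98.5 against 33.5. Six3-positive cells over the whole library were led by Cer1, Fam183b, Vtn, Bdnf, Hesx1 and T. Of these Hesx1, in 47 of 168 cells, kept a ratio of 10.99 without the positive cell with most UMIs, and Cer1 and Bdnf went from 15.3 to 3.48 and from 12.4 to 3.87. Lhx2-positive cells were led by Fgf15, Tppp3, Ptgds, Ccnd1, Kdr and Ebf1, but 1 cell each held 39 of 61 Fgf15, 62 of 82 Tppp3 and 37 of 61 Ptgds UMIs, and without it the ratios were 3.42, 1.42 and 1.26. Pax6-positive cells were led by S100a6, Irx5, Foxc1, Irx3, Meis1 and Rbm24, with ratios of at most 2.68. That highest ratio was of S100a6, found in 8 of 95 cells. Without 1 cell that held 33 of its 71 UMIs it was 1.45 (1.02 to 2.01).

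Among 30 other genes of anterior neural patterning, from a list drawn up with earlier results known, 27 had at least 10 UMIs. Of these, 24 were at least 2-fold higher and 1 at least 2-fold lower in the TKO-labelled library, beside 13.7% and 12.6% of all genes, and the median log2 ratio was 3.12 against 0.14 over all genes. A gene at nearly 0 in the WT-labelled library passes the minimum only if it is high in the other, so the count is no support. Foxd4 (1 and 133 UMIs) and Otx1 (4 and 133), the paralog of Otx2, were among those with the highest ratios. In the same order of libraries, the Wnt antagonists Sfrp1 and Dkk1 stood at 48.0 and 145 CPM and at 9.19 and 42.1 CPM. Cer1 stood at 0.480 and 6.98 CPM, with 96 of its 234 TKO-labelled UMIs in 1 cell, Zic2 at 0.480 and 10.5, and Sox2 at 4.08 and 35.6 CPM. Tcf7l1, a Wnt pathway repressor, was level, at 53.7 and 50.6 CPM, and Hhex stood at 19.2 and 35.0. Mab21l2, a gene of eye and branchial arch tissue, was the 1 lower gene, at 42.9 and 5.73 CPM. Six6 and Fezf1, which follow the members in eye field and forebrain, had 2 and 1 TKO-labelled UMIs and no WT-labelled ones.

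Across the 6 clusters with at least 30 TKO-labelled cells, the genes most like Otx2 by Pearson correlation of log2(CPM + 1), among 8580 genes ranked, were Tbc1d31 (0.99), Erdr1, Stx3, Socs2, Llph and Sall4 (0.97). Among those most like Six3 were Rimklb (0.99), Clcn3, Lsm12, Zfp944 and Gnaz (0.98). Among the members, Hesx1 and Sox3 were at 0.90, Hesx1 and Sox1 at 0.85, Six3 and Rax at 0.83, Otx2 and Six3 at 0.76, and Otx2 and Lhx2 at -0.51. These are 6 points from 1 library, and a high value among 8580 genes is easily found.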

How the data were processed

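Each library came as a table of unnormalised counts that the authors deposited, with genes in rows and cells in columns, whole numbers read here as UMI counts. Per the submitters' processing notes Seurat 3 and mm10 were used, with no role stated. Aligner, counting tool, strand setting and chemistry: not given in the sources used. The TKO-labelled table has 3224 barcodes in its header and 3223 values in each row, so cells were read by position, and 116 row names with another ending were matched by position. No column was left unused. Cells needed 500 genes, 1000 UMIs and at most 15% mitochondrial counts, which removed 3 WT-labelled and 26 TKO-labelled cells. Scrublet (scanpy 1.11.5) marked only 3 and 1 cells, which is treated as a failure of the caller, so no cell was removed as a doublet. Cells were clustered jointly from 2000 variable genes without the members, with 30 components, 15 neighbours and Leiden resolution 0.8, and a cluster was named from at least 3 list markers among its 10 leading genes. Thinning to 4000 UMIs left out 373 and 190 shallower cells. Ratios and thinning were tested on simulated data. The members, lists and tests were chosen with earlier results of these data known. Named genes are the members, up to 3 highest and 3 lowest of each list, the 6 genes most like Otx2 and Six3 over clusters, the 6 with the highest ratio in positive cells, and, added after seeing the data, the 8 with the highest ratio within a cluster and a few markers beside them. Some genes that the rule names are not reported here. Leaving out the positive cell with most UMIs of a gene was added after seeing the data.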

Additional observations from a re-analysis of the deposited data

How the results depend on the processing

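No paired analysis was possible because each group has 1 library. The count of members at least 2-fold higher was 7 under every alternative run (median-of-ratios scaling, means of per-cell CPM, no filter on cells, no low-count filter, 5% of cells with the highest doublet scores left out, 4-fold, and 10-fold, which was added). All 40 recomputed log2 ratios of single members kept their direction and stayed within the counting interval of the reported value, and median-of-ratios scaling shifted every log2 ratio by -0.14. Shares of cells carrying a list moved with depth and cut-off, as their construction implies. For Otx2-positive cells the pluripotent share was 13.4% at 3000 and 26.3% at 6000 UMIs, 37.5% with at least 2 and 15.9% with at least 4 list genes, 18.15% with at least 2 Otx2 UMIs and 37.9% without thinning, and the endoderm share, in the same order, 29.5%, 43.1%, 54.8%, 17.8%, 49.8% and 48.4%, each above that of negative cells. For Six3-positive cells the pluripotent share was 18.75% at 3000 UMIs, 50.65% with at least 2 list genes, 20% of 15 cells with at least 2 Six3 UMIs and 54.2% without thinning, each above that of negative cells. Their endoderm share was 12.5% at 3000 UMIs (negative cells 14.7%), 44.2% with at least 2 and 3.90% with at least 4 list genes (negative cells 8.50%), 46.7% with at least 2 UMIs and 36.9% without thinning, so its order against negative cells turned in the bracketed cases. Neural progenitor shares were 3.02% for Otx2 and 6.49% for Six3 with at least 2 list genes, and 3.11% and 7.74% without thinning. With another thinning draw they were 0.299% for Otx2 and 1.45% of 69 cells for Six3. The cluster with the most Trh UMIs was split by finer clustering, to 543 TKO-labelled cells at resolution 1.2 and 494 with each library on its own, and held 49.6% and 32.2% of the Otx2 and 32.3% and 12.7% of the Six3 UMIs. The pluripotent-like cluster held 19.8% to 20.4% of the Otx2 and 39.2% to 40.55% of the Six3 UMIs throughout. Depth limits what can be said of WT-labelled cells, where 3 counts are worth 0.0799 CPM and 6 members had at most 6 UMIs.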

Other observations

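Some of the other lists were also summed in thinned TKO-labelled cells with and without an Otx2 UMI. The summed cardiac contractile list stood at 84.2 CPM in Otx2-positive and 425 CPM in Otx2-negative cells, the hindbrain and posterior neural list at 19.3 and 69.5 CPM, and the extraembryonic endoderm list at 16.2 and 64.6 CPM. The anterior mesendoderm list stood at 198 and 125 CPM, the head mesenchyme list at 203 and 319, the neural crest list at 56.6 and 61.8, the endothelial list at 109.5 and 142 and the naive pluripotent list at 92.5 and 145 CPM. In Six3-positive cells the posterior list had 3 UMIs in 77 cells, or 9.74 CPM against 59.7.

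Otx2-positive cells of the cluster like head and paraxial mesenchyme, 154 of 574, had the early mesoderm gene Mesp1 at 43.8 CPM against 11.6 in the others, Fgf5 at 23.5 against 6.05, Gsc at 22.2 against 7.15 and Lgr5 at 13.7 against 2.20. In the cardiac-like cluster the 70 Otx2-positive cells of 1029 had Six3 at 9.19 CPM against 0.666, on 8 and 6 UMIs (4 of the 8 in 1 cell), and Lhx1 at 46.0 against 21.2. These genes were chosen after their values were seen.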
